A study of Mus musculus with 14 samples.

Results

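The cadherin and protocadherin genes were followed through 12 ChIP-seq peak lists from mouse neural stem cells. They were taken as every autosomal protein-coding RefSeq gene whose symbol starts with Cdh and a digit, or with Pcdh. This gave 90 of the 20665 autosomal protein-coding genes. Of these, 33 lie apart from one another or in small groups (23 Cdh and 10 Pcdh genes, called unclustered below), and 57 belong to the clustered protocadherins, with 14 Pcdha, 22 Pcdhb and 21 Pcdhg genes. The clustered genes are given separately because neighbours there share peaks. A gene is called marked in a library where a deposited peak came within 1 kb of one of its ends.

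The cells are labelled PDGF Neural Stem Cells, and the series' design text speaks of mouse DIPG cells, after diffuse intrinsic pontine glioma, a brainstem tumour of children. They carry one of 2 forms of histone H3.3, the wild type (labelled H3WT) or K27M, in which methionine stands at the place of lysine 27, and were grown with epidermal and basic fibroblast growth factors on laminin. For 12 days they received DMSO, the solvent, or 3 µM EPZ6438 (EPZ), which inhibits the histone methyltransferase Ezh2. H3K27me3 was mapped with 2 libraries for each genotype under DMSO and under EPZ, and Suz12 and Ring1b with 1 library per genotype in DMSO. How PDGF and the histones were introduced, from which animals the cells came and whether each genotype is 1 line or several is not given in the sources used here.

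Cadherins are calcium-dependent adhesion proteins that join neighbouring cells through their extracellular repeats. Type I and type II classical cadherins bind catenins inside the cell and so reach the actin cytoskeleton, while protocadherins lack that catenin-binding tail and act mainly in the recognition and wiring of neurons. H3K27me3 is written by Polycomb repressive complex PRC2, of which Ezh2 is the catalytic and Suz12 a core subunit. Ring1b is the ubiquitin ligase of the companion complex PRC1. Cdh1 (E-cadherin) is a well-known Polycomb target in cells that have left the epithelial state, and Cdh2 (N-cadherin) is the main classical cadherin of neural progenitors.

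The lists give only where the authors' peak caller passed its threshold, so a value here is a peak or a covered length, not an amount of the mark and not expression. The DMSO lists of H3K27me3 differ widely in length. They hold 13358 and 59899 peaks in H3WT (replicates 1 and 2) and 2351 and 17980 in K27M, against 201 to 340 in the 4 EPZ libraries. Suz12 has 631 peaks in H3WT and 1252 in K27M, and Ring1b has 1754 and 1808. Read depth is unknown, and its part in these differences was not tested. Among 16 markers of neural stem and glial progenitors, 0 were marked by H3K27me3 in both H3WT libraries, beside 10.6% of all autosomal genes. Pdgfra was marked in H3WT replicate 2 and in both K27M libraries in DMSO. Nes and Hes1 had a Ring1b peak in both genotypes. Of 12 markers of other cell types, the neuronal gene Rbfox3 and the epithelial genes Epcam and Krt8 were marked in both H3WT libraries (25.0%). Both marker lists are too short for their shares to be compared with that of all genes.

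The proximal promoters below are those of 5 unclustered genes at which a peak overlapped the promoter, wholly or in part. Each is the 250 bases before the RefSeq transcription start (GRCm38.p6, identical in chromosome sequence to mm10), with every CG dinucleotide in capitals. CG reads the same on both strands, and runs of it are a common feature of Polycomb-bound promoters. Pcdh8 (chr14:79771313-79771562 on the minus strand) lay under H3K27me3 peaks of both H3WT libraries and of K27M replicate 2, and Cdh8 (chr8:99416472-99416721 on the minus strand) under those of both H3WT libraries. Pcdh20 (chr14:88471397-88471646 on the minus strand) was overlapped in part by a peak of H3WT replicate 2, Pcdh17 (chr14:84443313-84443562 on the plus strand) lay under the H3WT Ring1b peak, and Pcdh10 (chr3:45378148-45378397 on the plus strand) lay under the H3WT Ring1b peak, with the H3K27me3 peak of H3WT replicate 2 over only the end nearest the start.
Pcdh8: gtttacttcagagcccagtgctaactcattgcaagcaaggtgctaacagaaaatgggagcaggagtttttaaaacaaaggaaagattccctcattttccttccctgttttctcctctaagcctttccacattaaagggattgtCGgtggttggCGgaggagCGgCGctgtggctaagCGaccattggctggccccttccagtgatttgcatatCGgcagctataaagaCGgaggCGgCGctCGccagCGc
Cdh8: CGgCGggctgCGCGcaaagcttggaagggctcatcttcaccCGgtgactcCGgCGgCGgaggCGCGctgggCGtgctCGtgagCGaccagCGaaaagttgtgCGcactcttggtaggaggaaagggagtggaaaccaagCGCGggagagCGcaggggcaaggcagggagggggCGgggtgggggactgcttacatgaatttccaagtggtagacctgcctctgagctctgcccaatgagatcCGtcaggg
Pcdh20: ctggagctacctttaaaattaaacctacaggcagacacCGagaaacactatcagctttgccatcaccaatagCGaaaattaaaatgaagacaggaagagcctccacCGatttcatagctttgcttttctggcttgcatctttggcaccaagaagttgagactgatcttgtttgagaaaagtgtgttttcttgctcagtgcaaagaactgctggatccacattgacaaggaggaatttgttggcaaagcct
Pcdh17: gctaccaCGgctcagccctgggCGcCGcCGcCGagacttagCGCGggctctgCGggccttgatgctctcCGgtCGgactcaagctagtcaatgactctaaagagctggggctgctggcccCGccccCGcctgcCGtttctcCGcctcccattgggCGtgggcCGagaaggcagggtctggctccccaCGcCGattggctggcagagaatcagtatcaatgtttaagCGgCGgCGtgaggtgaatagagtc
Pcdh10: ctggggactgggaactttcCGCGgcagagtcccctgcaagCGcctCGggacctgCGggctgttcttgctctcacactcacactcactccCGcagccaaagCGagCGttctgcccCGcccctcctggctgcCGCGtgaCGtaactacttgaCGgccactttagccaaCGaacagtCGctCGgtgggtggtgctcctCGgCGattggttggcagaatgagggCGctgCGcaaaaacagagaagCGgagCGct

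These promoters differ in CG content although a peak overlapped each. Pcdh10 holds 22 CG, Pcdh17 holds 21 and Cdh8 holds 20, while Pcdh8 holds 11 and Pcdh20 only 3. Among 16457 autosomal promoters of the same length the median is 10.0, and 28.7% of them hold as few CG as Pcdh20 or fewer, against 82.6% for Pcdh10. Of the 33 unclustered genes 21 have a promoter entry, and their median is 8. It is 6.5 for the 12 of these that were marked by H3K27me3 in at least 1 DMSO library and 10.0 for the 9 that were not. For genes marked in both H3WT libraries the median is 7 over the 5 unclustered ones with an entry and 12.0 over all 1609. Marked refers to either gene end, so these medians do not describe promoters under a peak. Of the 5, Cdh12 and Pcdh15 had no peak over the promoter counted. Cdh18, among the 9 genes not marked, had a peak of H3WT replicate 2 over its promoter.

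In H3WT cells in DMSO, 8 of the 33 unclustered genes were marked by H3K27me3 in both libraries (24.2%), beside 10.6% of all autosomal genes. They are the classical cadherins Cdh1, Cdh3, Cdh8, Cdh11 and Cdh12 and the protocadherins Pcdh8, Pcdh15 and Pcdh20. In replicate 1 these 8 were the marked genes (24.2%, against 10.7% of all genes). In the longer list of replicate 2 there were 14 (42.4%, against 20.8%), the additional ones being Cdh6, Cdh7, Cdh23, Cdh26, Pcdh10 and Pcdh17. At the other extreme, 12 unclustered genes had no peak of any kind within 10 kb of either end in any of the 12 libraries: Cdh2, Cdh9, Cdh10, Cdh13, Cdh16, Cdh17, Cdh18, Cdh19, Cdh20, Cdh24, Pcdh1 and Pcdh18. For comparison, 8592 of all 20665 genes had H3K27me3 cover within 10 kb in at least 1 library, beside 20 of the 33 unclustered genes. For single genes the values below are covered lengths, meaning how much of the DNA within 10 kb of the gene's ends lay under peaks.

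**Figure D1:**
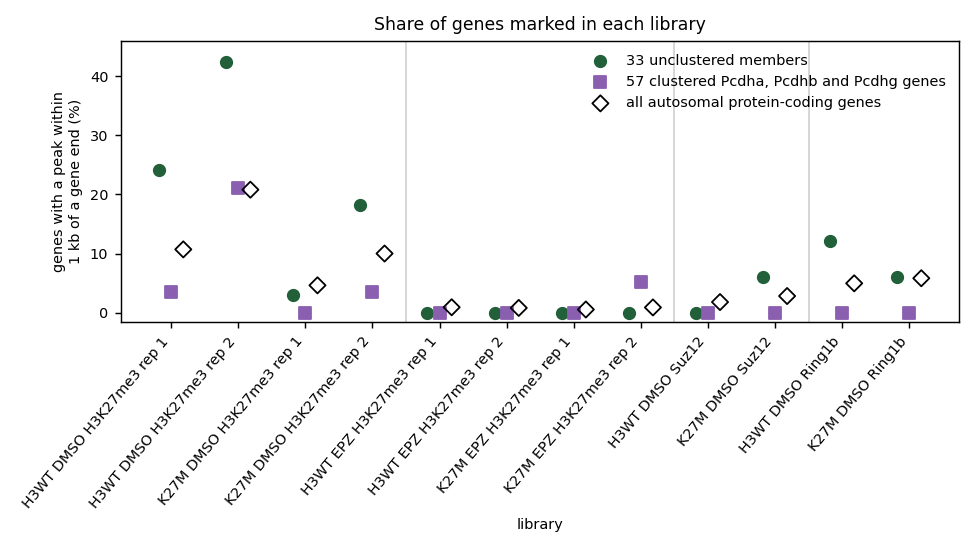
Share of genes (%) with a peak within 1 kb of a gene end in each of the 12 libraries on the x axis, for the 33 unclustered genes (circles), the 57 clustered genes (squares) and all 20665 autosomal protein-coding genes (diamonds). The unclustered genes sit above all genes in both H3WT DMSO libraries (24.2% and 42.4%) and in K27M DMSO replicate 2 (18.2%), and at 0 in the 4 EPZ libraries.

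Of the type I classical cadherins, 2 of 5 were marked in both H3WT libraries, beside 10.6% of all genes. This class and those below are too small for their shares to be compared. Cdh1 (chr8:106603350-106670247), the adhesion protein of epithelia, had 4.74 and 9.77 kb under peaks in H3WT, 0 and 4.68 kb in K27M, and 0 in all 4 EPZ libraries. A peak lay across the gene's lower end in 3 libraries, 4.74, 6.96 and 4.68 kb wide, and H3WT replicate 2 had another of 2.81 kb near the upper end. Cdh3 (chr8:106510852-106556911), the P-cadherin of basal epithelia and its neighbour on the chromosome, had 3.60 and 7.14 kb in H3WT and 0 and 4.96 kb in K27M. Both genes were therefore marked in the same 3 libraries, and K27M replicate 1 was without a peak at either.

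Cdh15 (chr8:122848374-122867397), the M-cadherin of muscle, had 4.76 and 16.2 kb in H3WT and 0 and 5.85 kb in K27M. It shows the edge of the 1 kb rule, since the nearest peak of H3WT replicate 2 lay 1.00 kb from its start, just outside, and that of K27M replicate 2 lay 0.772 kb away, just inside. Its covered length was higher in H3WT than in K27M within each replicate number, although only K27M replicate 2 counts as marked. Cdh4, the R-cadherin of brain and retina, had 1.77 kb in H3WT replicate 2 and no other H3K27me3. Cdh2, the N-cadherin of neural progenitors, had 0 kb in all 12 libraries.

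Among type II classical cadherins, 3 of 13 were marked in both H3WT libraries (23.1%, beside 10.6% of all genes). Cdh11 (chr8:102632095-102785493), a cadherin of mesenchymal cells, had 4.54 and 10.8 kb in H3WT and 0 and 5.03 kb in K27M. Cdh8 (chr8:99024471-99417666), found on subsets of neurons, had 6.85 and 9.19 kb in H3WT, as a single peak across its upper end in each library, and 0 in both K27M libraries. Cdh12 (chr15:20448878-21598421), a cadherin of brain, had 1.21 and 2.89 kb in H3WT and 0 in K27M. The Cdh12 peaks lay at the lower end of the gene interval, the upstream end for this plus-strand gene. They were 661 and 660 kb from the single transcription start listed for it, so not at that promoter. Cdh5, the VE-cadherin of endothelium, Cdh6 and Cdh7 had 4.42, 2.28 and 2.06 kb in H3WT replicate 2 and 0 in the other 7 H3K27me3 libraries.

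The remaining cadherins differ from the classical kind in their tails or their number of repeats. Of these, 0 of 5 were marked in both H3WT libraries, beside 10.6% of all genes. Cdh23 (chr10:60302748-60696513), a part of the tip link between hair-cell stereocilia in the inner ear, had most of its cover inside the gene, with 3.06 and 6.84 kb in H3WT and 1.67 and 2.67 kb in K27M. All 4 DMSO libraries had a peak there, starting 6.28 to 8.33 kb from the upper end, and replicate 2 of H3WT alone had a further one 0.413 kb beyond that end. Cdh26 had 2.99 kb in H3WT replicate 2 only. Cdh13, a cadherin anchored by a lipid in place of a tail, the kidney cadherin Cdh16 and the liver-intestine cadherin Cdh17 had 0 in every library.

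The delta protocadherins share motifs in their cytoplasmic tails and are expressed in patterns across the nervous system. Of these, 1 of 7 was marked in both H3WT libraries (14.3%, beside 10.6% of all genes). This was Pcdh8 (chr14:79766772-79771312), a synaptic protocadherin, with 11.6 and 16 kb in H3WT and 6.51 and 12.9 kb in K27M. In H3WT the peaks ran across the whole gene of Pcdh8, up to 16 kb wide. Pcdh17 (chr14:84443563-84537565) had 4.67 and 12.7 kb in H3WT and 0 in K27M, and its replicate 1 peaks lay at least 1.21 kb from the start, outside the window. Pcdh9 (chr14:93013700-93892834) had 4.09 and 4.68 kb in H3WT and 0 in K27M, from peaks more than 5 kb beyond its upper end, of which that of replicate 2 was 32.2 kb wide. Pcdh10 (chr3:45378398-45434579) had 0 and 3.38 kb in H3WT, and Pcdh7 had 0 and 6.46 kb. Both had 0 in K27M.

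Of the other 3 unclustered protocadherins, 2 were marked in both H3WT libraries, beside 10.6% of all genes. Pcdh15 (chr10:73096277-74649831), the partner of Cdh23 in the tip link, had 7.69 and 12.6 kb in H3WT and 2.78 and 6.82 kb in K27M. As at Cdh12, a peak of Pcdh15 lay at the lower end of a very long gene interval in each of the 4 DMSO libraries, 718 to 721 kb from its listed transcription start. H3WT replicate 2 had further peaks at the upper end, 1 of them across it, and these are part of its 12.6 kb. Pcdh20 (chr14:88464743-88471396) had 1.21 and 5.86 kb in H3WT and 0 in K27M, and its replicate 1 peak, 0.850 kb from the start, lay just inside the window. Pcdh12, known from endothelium, had 1.00 kb in H3WT replicate 2 alone.

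**Figure D2:**
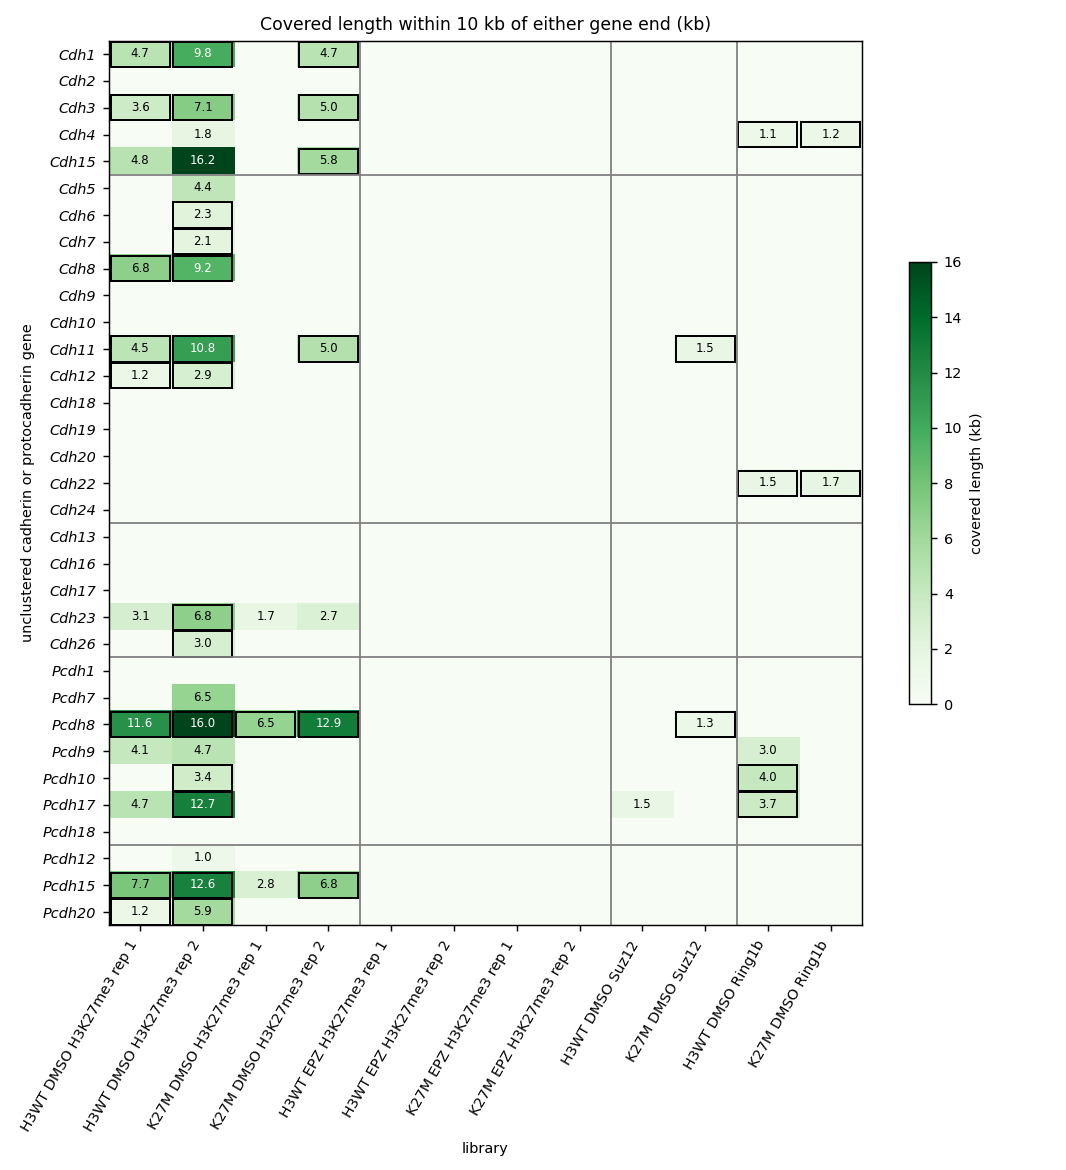
Covered length (kb) within 10 kb of either gene end for the 33 unclustered genes (y axis, ordered by class with grey lines between classes) in the 12 libraries (x axis). Darker green is longer, numbers give the value where it is above 0, and a black frame means a peak within 1 kb of a gene end. The cover sits in the 4 DMSO columns of H3K27me3 and is 0 in all EPZ columns.

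The peaks at the ends of unclustered genes were wider than the typical peak in 3 of the 4 DMSO libraries. Their median width was 4.64 kb over 8 peaks in H3WT replicate 1, where all autosomal peaks have a median of 1.90 kb. It was 4.04 kb over 16 peaks against 1.93 kb in H3WT replicate 2, and 5.40 kb over 6 peaks against 2.15 kb in K27M replicate 2. In K27M replicate 1 the order was the other way, with 2 kb over the 2 peaks at Pcdh8 against 2.98 kb. No test was made of these widths, and peaks near genes were not separated from the rest.

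By chromosome, 4 of the 8 unclustered genes on chromosome 8 (50.0%) were marked in both H3WT libraries, namely Cdh1, Cdh3, Cdh8 and Cdh11, and 4 of the 25 elsewhere (16%), beside 10.6% of all autosomal genes. The share of all chromosome 8 genes is not given, and 8 genes are too few to compare. Several long genes also had H3K27me3 peaks far inside, more than 10 kb from either end. Cdh23 had 3 and 14 such peaks in H3WT replicates 1 and 2, Cdh8 had 2 and 10, and Pcdh15 had 0 and 11. Over all unclustered genes these interior peaks numbered 6 and 41 in H3WT, 0 and 1 in K27M and 0 in every EPZ, Suz12 and Ring1b library, the single K27M one being at Cdh23. No count of interior peaks over all genes is given, and the K27M lists are shorter, so these numbers are not compared between genotypes.

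K27M was compared with H3WT in DMSO to see where the mark was still called beside the mutant histone. Of the 8 genes marked in both H3WT libraries, Pcdh8 was retained, with peaks in both K27M libraries. Cdh8, Cdh12 and Pcdh20 were lost, with peaks in neither, and Cdh1, Cdh3, Cdh11 and Pcdh15 had a peak in K27M replicate 2 only. Over all 2187 such genes 42.8% were retained, 18.8% lost and 38.4% marked in 1 K27M library. By library, 1 unclustered gene was marked in K27M replicate 1 (3.03%, against 4.62% of all genes) and 6 in replicate 2 (18.2%, against 10.0%). These were the 5 genes with a peak that H3WT also had and Cdh15, and 0 unclustered genes were marked in both K27M libraries and neither H3WT library.

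Because the lists differ in length, the H3WT and K27M lists in DMSO that are closest in autosomal cover were also compared. H3WT replicate 1 covers 39.2 Mb of the autosomes and K27M replicate 2 covers 41.6 Mb, with 13358 and 17980 peaks in all. The pair crosses replicate numbers, so genotype and replicate number cannot be told apart in it. Of the 8 unclustered genes marked in the first, 5 were also marked in the second (62.5%): Cdh1, Cdh3, Cdh11, Pcdh8 and Pcdh15. Of all genes marked in the first 80.6% were marked in the second, and in the other direction 85.9%. Cdh8, Cdh12 and Pcdh20 were marked in the H3WT list alone and Cdh15 in the K27M list alone. Cdh1 had almost the same covered length in this pair, 4.74 and 4.68 kb, and Cdh3 and Cdh11 had more in the K27M list (4.96 against 3.60 kb and 5.03 against 4.54 kb), as did Pcdh8 (12.9 against 11.6 kb). Cdh8 went the other way, with 6.85 kb against 0.

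Across all 4 libraries, covered length did not overlap between genotypes at 8 of the 20 unclustered genes with H3K27me3 cover, H3WT being higher at each. These were Cdh1, Cdh8, Cdh12, Cdh23, Pcdh9, Pcdh15, Pcdh17 and Pcdh20. The same was true of 25.4% of all 8563 genes with cover. Cdh8, Cdh12, Pcdh9, Pcdh17 and Pcdh20 had cover in H3WT alone, so at these H3WT could only be higher. The means were 8.02 ± 1.66 kb in H3WT against 0 in K27M at Cdh8 (SD, n = 2), 8.70 ± 5.71 against 0 kb at Pcdh17, 4.38 ± 0.414 against 0 kb at Pcdh9 and 10.1 ± 3.47 against 4.80 ± 2.86 kb at Pcdh15. Cdh12 (2.05 ± 1.19 kb in H3WT) and Pcdh20 (3.54 ± 3.29 kb) had 0 in K27M, and Cdh23 had 4.95 ± 2.68 against 2.17 ± 0.709 kb. At Cdh1 the gap between the closest libraries was small beside the spread (7.25 ± 3.55 against 2.34 ± 3.31 kb). The groups overlapped at Pcdh8 (13.8 ± 3.10 against 9.69 ± 4.49 kb), Cdh11 (7.67 ± 4.43 against 2.52 ± 3.56 kb), Cdh3 (5.37 ± 2.50 against 2.48 ± 3.51 kb) and Cdh15 (10.5 ± 8.12 against 2.92 ± 4.14 kb).

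With 2 libraries against 2 the smallest p an exact permutation test can give is 0.333, so these differences between genotypes could not pass 0.05. List length moves in the same direction, since each K27M list is shorter than the H3WT list of its number, and its part in the result was not tested.

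**Figure D3:**
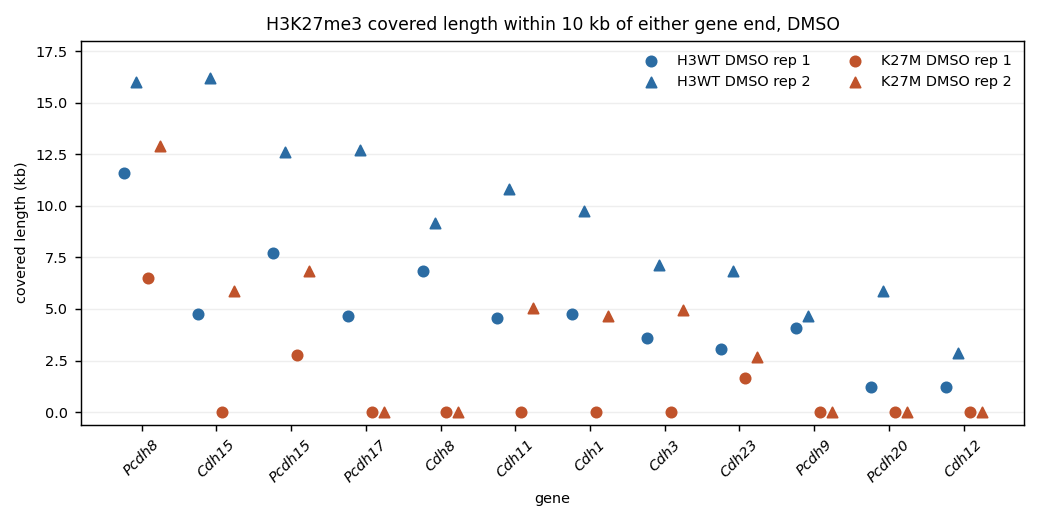
Covered length of H3K27me3 (kb, y axis) in each DMSO library for the 12 unclustered genes with cover in both H3WT libraries (x axis). Blue is H3WT and orange K27M, with circles for replicate 1 and triangles for replicate 2. Cdh8, Pcdh17, Pcdh9, Pcdh20 and Cdh12 are at 0 in both K27M libraries, and at Pcdh8 K27M replicate 2 lies between the H3WT libraries.

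Under EPZ no unclustered gene was marked by H3K27me3 in any of the 4 libraries. This count of 0 of 33 stands beside 0.910% and 0.798% of all genes in H3WT replicates 1 and 2, 0.532% and 0.881% in K27M, and 1.07% in any of the 4, so fewer than 1 gene would be marked at the background share. Nor was there any cover within 10 kb of an end. All 20 unclustered genes with cover in DMSO, Pcdh8 among them, were at 0 kb in the 4 EPZ libraries.

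Covered length in the 4 EPZ libraries was set against the 4 DMSO libraries by a two-sided exact permutation test. It was run for each of the 8592 genes with cover in at least 1 of these libraries, with Benjamini-Hochberg adjustment over all of them. Every DMSO library exceeded every EPZ library at 3 of the 20 unclustered genes tested, and at 15.8% of all genes tested. The mean difference, EPZ minus DMSO, was -11.74 kb at Pcdh8, -7.47 kb at Pcdh15 and -3.56 kb at Cdh23, each with DMSO higher in 4 of 4 libraries and with the smallest exact p the design allows, 0.0286, and an adjusted p of 0.181. As that was the smallest adjusted p of any gene, 0 genes passed 0.05 after adjustment, while 1354 had an unadjusted p below it, all lower under EPZ. At Cdh1, where K27M replicate 1 was already at 0, the exact p was 0.143 (adjusted 0.396), and at Cdh8, with 0 in both K27M libraries, it was 0.429 (adjusted 0.786). The median difference, EPZ minus DMSO, was -1.98 kb over the 20 unclustered genes and -1.62 kb over all genes tested. These 20 entered the test through cover in DMSO alone, so their differences could only be negative. With EPZ at 0 throughout, the 3 separated genes are simply those with cover in all 4 DMSO libraries. The labels do not say that replicates were separate cultures, so these p-values measure only the spread between libraries.

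Ring1b had peaks at 4 of 33 unclustered genes in H3WT (12.1%, against 4.96% of all genes) and at 2 in K27M (6.06%, against 5.82%). Cdh22 (chr2:165111501-165234924), a type II cadherin of brain, and Cdh4 (chr2:179442423-179899377) had one in both genotypes. The covered lengths were 1.54 kb in H3WT and 1.70 kb in K27M at Cdh22, and 1.09 and 1.21 kb at Cdh4. Neither gene had an H3K27me3 peak at its ends, and Cdh22 had no H3K27me3 within 10 kb in any library. Pcdh10 and Pcdh17 had Ring1b in H3WT only, with peaks 4 and 3.66 kb wide across their starts and 0 kb in K27M. Of all genes with Ring1b in H3WT, 79.1% also had it in K27M. Pcdh9 followed the same pattern at a distance, with 2 H3WT Ring1b peaks beyond its upper end, 6.61 and 8.44 kb away, and none in K27M.

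Suz12 had peaks at 0 unclustered genes in H3WT (against 1.79% of all genes) and at 2 in K27M (6.06%, against 2.81%). These were Pcdh8, with a peak 1.29 kb wide that began 0.779 kb from the start, and Cdh11, with one 1.46 kb wide 0.885 kb inside its upper end. Among all genes with Suz12 in K27M, 48.0% also had it in H3WT. In H3WT the nearest Suz12 peak was at Pcdh17, 1.53 kb wide and 1.43 kb from the start, outside the window, and K27M had none there. With 1 library per genotype these differences for Suz12 and Ring1b have no replicate check. Peaks of Suz12 (2 genes) and Ring1b (4 genes) were thus at the ends of different unclustered genes, though with 5 kb windows Pcdh17 had both. The share of all genes with both is not given, so this is not read as a trait of the unclustered genes. Pcdh17 was the one unclustered gene where H3K27me3, Suz12 and Ring1b all had a peak within 10 kb, in H3WT.

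**Figure D4:**
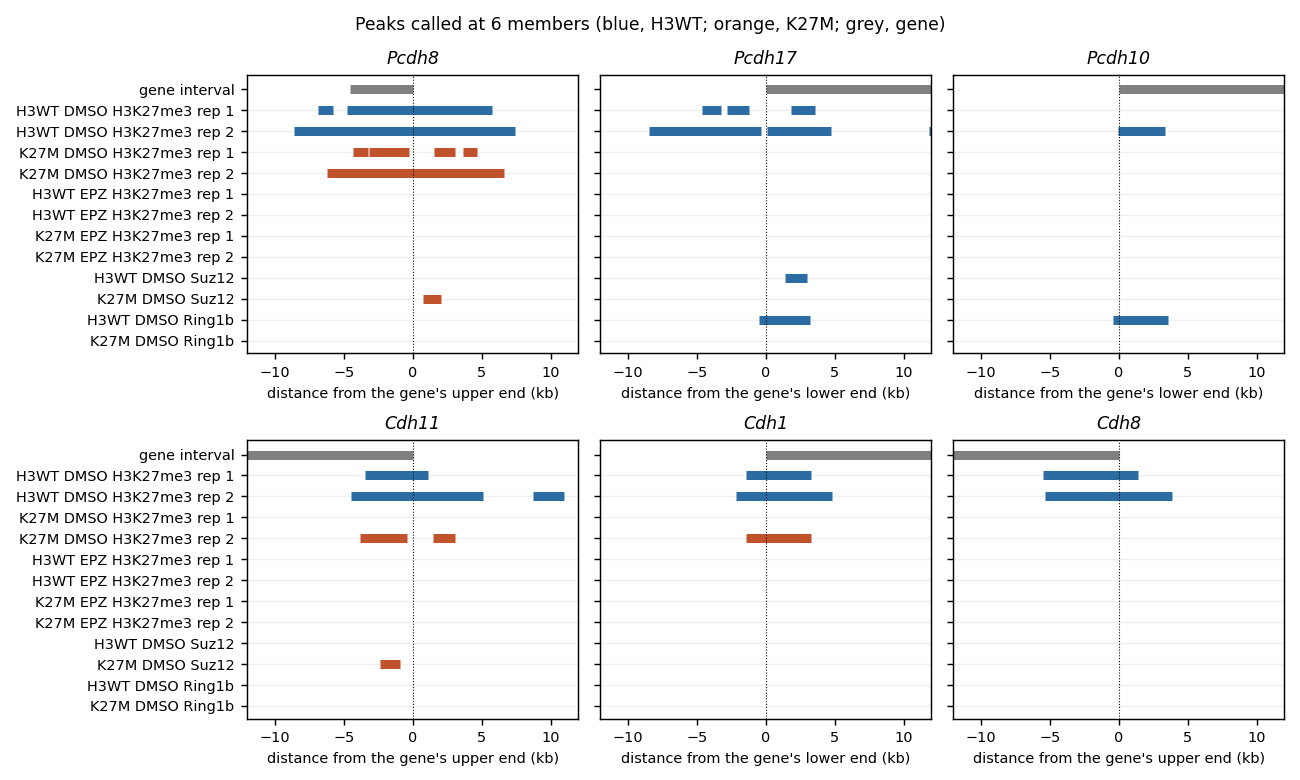
Peaks of the 12 libraries (rows) within 12 kb of one end of 6 unclustered genes, against the distance from that end in kb, with H3WT in blue, K27M in orange and the gene interval in grey. Pcdh8 keeps H3K27me3 in K27M as several short peaks in replicate 1 and 1 wide peak in replicate 2, while Pcdh17, Pcdh10 and Cdh8 have blue bars only.

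The clustered protocadherins lie in 3 arrays on chromosome 18. In the Pcdha and Pcdhg arrays each variable first exon has its own promoter and is spliced to shared constant exons, and the choice among them gives single neurons their identity, whereas Pcdhb genes have no shared exons. Since the Pcdha genes end within 1240 bp of one another and the Pcdhg genes within 10 bp, a peak at that end would mark the whole array at once, and no library had one. In both H3WT libraries 2 of the 57 genes were marked (3.51%, beside 10.6% of all genes), Pcdhac2 and Pcdhb3. By library the counts were 2 in H3WT replicate 1 (3.51%, against 10.7% of all genes) and 12 in H3WT replicate 2 (21.1%, close to the 20.8% of all genes). They were 0 and 2 in K27M replicates 1 and 2 (0 and 3.51%, against 4.62% and 10.0%), and 3 in K27M EPZ replicate 2 (5.26%, against 0.881%). Suz12 and Ring1b had no peak inside any of the 3 arrays.

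In the Pcdha array (chr18:36930285-37188897) H3K27me3 was at the C-type genes, whose promoters stand apart from those of the alternate genes. Pcdhac2 had a peak across its lower end in both H3WT libraries and in K27M replicate 2, 3.51, 11.0 and 1.84 kb wide. Pcdhac1 had one in H3WT replicate 2, 9.73 kb wide, and in K27M replicate 2, 1.40 kb wide. The 12 alternate genes Pcdha1 to Pcdha12 had no peak at their ends in any library. The array was covered for 5.42 kb (2.09% of its length) and 39.4 kb (15.2%) in H3WT, and for 0 and 5.62 kb (2.17%) in K27M. The same 3 libraries shared a further peak between both C-type genes, offset from the lower end of Pcdhac2 by -16.7 and -13.9 kb in H3WT and -15.5 kb in K27M. The 4 EPZ libraries had no peak in this array.

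In the Pcdhb array (chr18:37264998-37521419) H3K27me3 appeared in H3WT alone, as 3 peaks over 3.90 kb in replicate 1 and 15 peaks over 28.3 kb (11.0%) in replicate 2. The latter marked 10 of the 22 genes, 5 of them at their lower end, and Pcdhb3 was marked in both. Covered length within 10 kb was above K27M in both H3WT libraries at Pcdhac2, Pcdhb2, Pcdhb3, Pcdhb4, Pcdhb5, Pcdhb10 and Pcdhb11, which is 7 of the 28 clustered genes with cover (25.4% of all genes). Several of these read the same peaks, and the Pcdhb genes had cover in H3WT alone, so there H3WT could only be higher.

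The Pcdhg array (chr18:37661775-37841873) differed from both. It had no H3K27me3 peak in DMSO and 3 peaks in K27M EPZ replicate 2, at Pcdhga8, Pcdhgb5 and Pcdhga12, with widths of 1.85, 1.01 and 1.49 kb and 4.34 kb (2.41%) in all. K27M EPZ replicate 1 had none, so the 3 peaks rest on 1 library and their replicate does not show them. Of 34 clustered genes tested, 0 were separated between EPZ and DMSO, and 6 Pcdhg genes had a higher mean under EPZ, from these peaks. The C-type genes Pcdhgc3, Pcdhgc4 and Pcdhgc5 had no peak at their ends in any library, unlike Pcdhac1 and Pcdhac2.

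**Figure D5:**
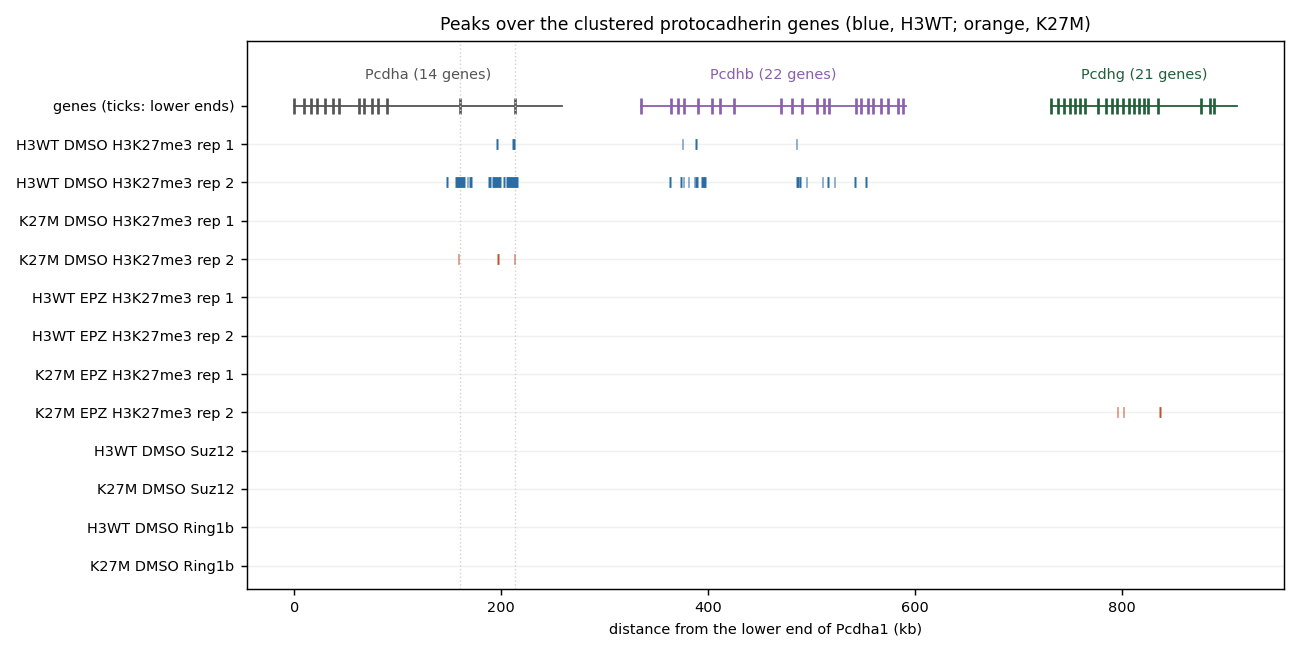
Peaks in the 12 libraries (rows) along the Pcdha, Pcdhb and Pcdhg arrays, against the distance from the lower end of Pcdha1 in kb. Ticks in the top row are the genes' lower ends, and dotted lines mark Pcdhac1 and Pcdhac2. Blue (H3WT) bars lie over the last Pcdha genes and parts of Pcdhb, and the 3 orange bars over Pcdhg are from K27M EPZ replicate 2.

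Other genes of the cadherin system were read from lists in the same way. Over all autosomal genes, 10.6% were marked in both H3WT libraries, and of these 42.8% were retained in K27M and 18.8% lost. Of 27 further members of the cadherin superfamily 8 were marked (29.6%), of which 3 were retained and 3 lost. Dchs2, a large cadherin of the dachsous kind, had 10.3 and 17.0 kb in H3WT and 6.55 and 15.9 kb in K27M, with Ring1b in both genotypes. Ret, a receptor tyrosine kinase with cadherin repeats, had 11.7 and 24.8 kb in H3WT and 3.93 and 7.32 kb in K27M, with Suz12 in both. Clstn2, a synaptic calsyntenin, was the third retained gene, with 5.51 and 14.9 kb against 1.74 and 5.97 kb. Celsr2, Clstn3 and Cdhr1 were lost, with 2.21, 4.79 and 3.90 kb in H3WT replicate 2 and 0 in both K27M libraries. None of the 27 was marked under EPZ.

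Among 14 catenins and plaque proteins, which link cadherins to the cytoskeleton, 4 were marked in both H3WT libraries (28.6%, beside 10.6% of all genes). They were the plakophilins Pkp1, Pkp2 and Pkp3 of desmosomes and Arvcf of the p120 catenin family, of which Pkp1 was retained (18.2 and 24.2 kb in H3WT, 5.89 and 15.4 kb in K27M). Of 7 repressors of Cdh1 transcription 4 were marked, Snai2, Snai3, Twist1 and Twist2, and Snai2, Twist1 and Twist2 were retained (42.8% of all marked genes were). Twist1 had 22.2 kb in each of the 4 DMSO libraries, which fills its windows. Under EPZ it had 15.5 and 8.03 kb in H3WT and 0 and 12.0 kb in K27M. By the 1 kb rule it was marked there in H3WT replicate 1 and K27M replicate 2. Of all genes, 1.07% were marked in any of the 4 EPZ libraries. Of 7 regulators of the clustered protocadherins, such as Ctcf and cohesin subunits, 0 had a peak at their ends in any of the 12 libraries. Even in the longest list, H3K27me3 in H3WT DMSO replicate 2, 20.8% of all genes were marked, and 7 genes are too few to compare.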

How the data were processed

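Peak lists of 12 of the 14 libraries were analysed, and the 2 IgG libraries were not analysed here. Per the submitters' processing notes, Bowtie 1.1.2 and mm10 were used. The peak caller, its threshold, its control and the read depth are not given in the sources used here. The authors deposited 1 list per library, with chromosome, start and end. The deposited score was 0 in all 100144 lines, so no height was used. The narrowest peak was 1001 bp, and 21 peaks touching a neighbour were merged.

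Gene positions came from the RefSeq table of GRCm38.p6, which has no strand, so both gene ends were used. A peak had to overlap a window by at least 1 bp. Transcription starts came from the RefSeq promoter table, which matched 21 of 33 unclustered and 0 of 57 clustered genes. Promoters were printed for the 5 genes marked in the most libraries, then by H3WT covered length, among those with a peak over the promoter, a condition set after the data were seen. Every unclustered gene could be named, and values per library were given for those marked in both H3WT libraries, for those with peaks in K27M, Suz12 or Ring1b lists, and for Cdh1 and Cdh2.

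The members, rule and 11 gene lists were chosen with earlier results of these data known. Groups follow the sample titles. The exact permutation test used 70 relabellings and was tested on simulated data. Intervals from counts need reads and are not given. Python 3.11.15, pandas 2.3.3, numpy 2.4.6, scipy 1.17.1 and matplotlib 3.10.9 were used. Alternatives were 5 kb windows, whole genes, peaks of at least 3 kb, an overlap of 500 bp, transcription starts alone, each replicate left out and a replicate block.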

Additional observations from a re-analysis of the deposited data

How the results depend on the processing

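Counts depend on the window and on the replicate. With 5 kb windows 2 unclustered genes were retained, and of the clustered genes 6 were marked, 5 lost and 5 marked under EPZ. Over whole gene intervals 3 unclustered genes were retained and 5 lost, and 15 clustered genes were marked in H3WT and 18 under EPZ. Of the 15, all but Pcdhb3 are Pcdha genes, whose long intervals share peaks. The 18 are Pcdhg genes with overlapping intervals, read from the same 3 peaks of K27M EPZ replicate 2. No share over all genes is given at these settings. With peaks of at least 3 kb the unclustered counts were 0 retained, 1 lost, 0 with Suz12 and 2 with Ring1b, the clustered ones 1 marked and 0 under EPZ, and 1 unclustered gene was separated between EPZ and DMSO. Requiring 500 bp of overlap left 0 unclustered genes with Suz12, 1 clustered gene marked and 0 lost. At transcription starts alone, over 21 unclustered genes, 4 were marked (Cdh8, Cdh18, Pcdh8 and Pcdh20) and 1 had Suz12; the clustered genes have no listed start, so this was not run for them. Using only the lower coordinate of clustered genes, an alternative chosen after seeing the data, 1 was marked and 0 lost. Leaving out a replicate number gave 8 to 14 unclustered genes marked in H3WT, 1 to 5 retained and 7 to 9 lost. For clustered genes it gave 2 to 12 marked, 0 to 2 retained, 2 to 10 lost and 0 to 3 marked under EPZ. Leaving out 1 library at a time gave 3 to 7 unclustered genes separated between EPZ and DMSO, the 7 without K27M DMSO replicate 1, where the smallest p is 0.0571. No unclustered gene was marked under EPZ in any alternative run. Whether the replicate numbers pair the libraries is not known, and the main test used no pairs. Correlations of deviations between groups ran from -0.45 to 0.35, the latter between H3WT and K27M in DMSO, and cannot settle it. With a replicate block, DMSO exceeded EPZ in every pair at 3 unclustered genes (Pcdh8, Pcdh15 and Cdh23), and the smallest p within pairs is 0.125. With depth unknown, a missing peak is not evidence that the mark is absent.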

Other observations

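Cdh18, a type II cadherin of brain, had no peak near either end of its gene interval but had H3K27me3 at its listed transcription start, which lies inside the interval. The peak of H3WT replicate 1 was 1.5 kb wide and 0.511 kb from that start, and that of replicate 2 was 3.84 kb wide and lay across it. No other library had one. Pcdh15 and Cdh12 show the converse, with peaks at the lower end of the interval, far from the listed start. Both listed starts are on the plus strand, so that end is the upstream end of the gene interval. Cdh22 has the promoter with the most CG among the 21 unclustered genes with an entry, 30 in 250 bases, and it had Ring1b in both genotypes without H3K27me3. Pcdh18 (23 CG) and Cdh24 (22 CG) had no peak within 10 kb in any library.

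Pdgfra, the PDGF receptor gene, was the one gene of the 16 progenitor markers with H3K27me3 at its ends in both K27M DMSO libraries. Of all genes, 4.62% were marked in replicate 1 of K27M and 10.0% in replicate 2, so 1 of 16 does not stand out. The covered length of Pdgfra was 4.60 and 9.63 kb in K27M and 1.49 and 3.99 kb in H3WT, the opposite order to the unclustered cadherins. The share of all genes with this order is not given.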
